A study of Mus musculus with 8 samples.

Results

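The 10 genes described here encode the 5 Rel/NF-κB subunits (Nfkb1, Nfkb2, Rel, Rela and Relb) and 5 members of the IκB family (Nfkbia, Nfkbib, Nfkbie, Nfkbiz and Bcl3). They were chosen by name, with earlier results of these data known, and all 10 were found among the 24112 genes of each table. RNA was measured in LSK cells (negative for lineage markers, positive for Sca1 and Kit), a marrow population rich in blood stem cells and early progenitors, which were sorted from C57BL/6 mice that had been reconstituted with donor marrow. The knockout (KO, 4 libraries) received Traf6-/-;Vav-Cre+ marrow and the wild type (WT, 4 libraries) received Vav-Cre+ marrow, so both groups carry the Cre recombinase, which the Vav promoter drives in blood cells. TRAF6 is a ubiquitin ligase downstream of the Toll-like and interleukin-1 receptors that leads to NF-κB, and the study asked about its part in basal NF-κB activity. The labels give no age, do not say how cells of the host were told apart from donor cells, and do not state that each library is a mouse of its own, so the spread behind every p-value may be partly or wholly technical.

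NF-κB is a dimer of Rel proteins that share a DNA-binding Rel homology domain. In the canonical pathway, RELA or c-REL paired with the product of Nfkb1 is held in the cytoplasm by IκB proteins until the IκB kinase marks these for degradation. In the non-canonical pathway, the kinase NIK brings about the processing of the Nfkb2 precursor, which frees dimers that contain RELB. Several of these genes are themselves NF-κB targets, among them Nfkbia, Nfkb2, Rel and Relb, and this feedback is best known for Nfkbia, whose product IκBα ends the response. IκBζ (Nfkbiz) and BCL3 differ from the cytoplasmic inhibitors in acting mainly in the nucleus, where they modify what NF-κB does at its target genes.

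The levels below were taken to be RPKM (reads per kilobase of a gene, per mega-reads of its library), a unit inferred from the values. Setting them side by side across genes rests on this. Depth was estimated from the steps between low values and came to 22.5 to 30.7 M reads (M, mega) in genes in KO and 19.3 to 24.9 M reads in WT. Some abundant genes have a value of 0 in single libraries: of 3943 genes averaging more than 20 RPKM, 175 are at 0 in KO3, 61 in KO4 and 6 to 47 in each of the other 6 libraries. A 0 is therefore called listed at 0, since the RNA may still have been there. The sample descriptions give lane 5 for KO3 and KO4, and lane 4 for all others. Traf6 was at 0 to 0.818 RPKM in KO and at 3.52 to 14.9 RPKM in WT. The summed level of 6 markers of LSK cells and their subsets was 418 to 508 RPKM in KO and 536 to 604 in WT, with no overlap. Of the genes of the sorting gate itself, Kit was at 50.6 to 113 RPKM in KO and 73.8 to 83.1 in WT, and Ly6a, which encodes Sca1, at 6.53 to 10.9 in KO and 7.31 to 11.8 in WT. Flt3, a receptor gene of multipotent progenitors, was lower in every KO library, at 31.4 to 54.0 RPKM in KO and 59.3 to 89.2 in WT. Among defining markers of mature lymphocytes, Cd79a, Ms4a1, Pax5 and Cd3g were listed at 0 in all 8 libraries, and 1 of 5 B cell and 3 of 6 T and NK cell markers reached 1 RPKM in any library (sums of 6.65 to 16.1 and 0.828 to 8.26 RPKM in KO, and of 5.09 to 16.3 and 5.60 to 7.39 RPKM in WT). The B cell marker that did was Cd79b, at 6.65 to 16.1 RPKM in KO and 4.78 to 16.3 in WT. Those of T and NK cells were Cd3d, Klrb1c and Ncr1, at up to 3.42, 8.20 and 2.99 RPKM. The summed level of 6 monocyte, macrophage and neutrophil markers was 172 to 206 RPKM in KO and 125 to 181 in WT, most of it Lyz2 (119 to 175 RPKM in KO and 119 to 168 in WT). In this list Csf1r was higher in every KO library, at 6.04 to 22.0 RPKM in KO and 0.542 to 5.79 in WT, as was Itgam, at 5.92 to 22.8 RPKM in KO and 0.707 to 2.76 in WT. The sum of 6 dendritic cell markers was 2.78 to 15.4 RPKM in KO and 10.7 to 26.3 in WT. For 4 erythroid and 5 endothelial and stromal markers the sums were 25.5 to 50.5 and 1.45 to 4.57 RPKM in KO, and 37.5 to 129 and 1.01 to 2.88 RPKM in WT. The part of such cells in the values below was not tested, and in bulk RNA fewer cells of a type cannot be told apart from less RNA per cell.

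Because feedback on these genes acts through κB sites, the promoter sequences of the members were searched for the κB consensus and are shown where they carry or lack it. RefSeq promoters of the mouse build GRCm38.p6, each 300 bases long with 250 before and 50 after a transcription start, were matched for 7 of the 10 members, in 9 entries. Nfkb1, Relb and Nfkbiz had no entry. On either strand, counting overlapping matches as a single stretch, the consensus lay in 5 of the 7 members (Bcl3, Rel, Nfkbia, Nfkbie and Nfkb2) and in neither Rela nor Nfkbib. Counted by entry, it lay in 7 of the 9 entries of the members and in 4.51% of all 32851 promoter entries. Some entries of Nfkb2 overlap. Capitals mark the consensus in the lines below, which give the most abundant inhibitor gene, a canonical and a non-canonical subunit gene with a match and a canonical subunit gene without it.
Nfkbia, chr12:55492598-55492897, minus strand: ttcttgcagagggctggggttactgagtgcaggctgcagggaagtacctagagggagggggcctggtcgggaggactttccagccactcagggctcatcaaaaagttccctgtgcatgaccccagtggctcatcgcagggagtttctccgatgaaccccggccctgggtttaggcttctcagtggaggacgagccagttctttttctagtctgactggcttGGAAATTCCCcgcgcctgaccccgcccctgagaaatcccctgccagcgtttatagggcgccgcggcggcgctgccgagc
Rel, chr11:23770920-23771219, minus strand: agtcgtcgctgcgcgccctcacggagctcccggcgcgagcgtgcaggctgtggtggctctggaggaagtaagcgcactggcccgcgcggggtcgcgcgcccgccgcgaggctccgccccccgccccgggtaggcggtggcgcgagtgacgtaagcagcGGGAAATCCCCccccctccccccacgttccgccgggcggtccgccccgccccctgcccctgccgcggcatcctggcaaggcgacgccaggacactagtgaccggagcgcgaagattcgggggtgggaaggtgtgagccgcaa
Nfkb2, chr19:46304487-46304786, plus strand: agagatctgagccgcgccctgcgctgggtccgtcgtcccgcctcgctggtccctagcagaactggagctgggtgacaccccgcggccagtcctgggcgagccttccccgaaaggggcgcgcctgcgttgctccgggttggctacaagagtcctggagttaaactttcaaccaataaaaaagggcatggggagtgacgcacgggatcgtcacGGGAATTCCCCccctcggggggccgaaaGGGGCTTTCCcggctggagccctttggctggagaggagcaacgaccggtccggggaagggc
Rela, chr19:5637291-5637590, plus strand: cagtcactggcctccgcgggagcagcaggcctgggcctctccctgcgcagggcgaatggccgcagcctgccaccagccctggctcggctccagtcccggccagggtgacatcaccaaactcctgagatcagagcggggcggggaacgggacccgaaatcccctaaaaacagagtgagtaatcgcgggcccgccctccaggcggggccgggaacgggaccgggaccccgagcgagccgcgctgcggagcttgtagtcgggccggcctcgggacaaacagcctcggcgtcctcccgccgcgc
The stretch in Nfkbia began 29 bases before the start and that in Rel 92 bases before it. The first entry of Nfkb2 held 2 stretches, beginning 39 and 11 bases before its start. Bcl3 held GGGAAGTCCC and Nfkbie GGGGGATTCC. A match describes these letters only and was not tested as a binding site.

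The canonical subunit genes Nfkb1 and Rela were the abundant ones, and neither differed between genotypes beyond the spread of the libraries. Nfkb1 (Entrez 18033), which encodes the precursor of the p50 subunit, was at 52.2, 56.6, 66.2 and 30.5 RPKM in KO1 to KO4, against 59.6, 45.1, 51.2 and 50.1 RPKM in WT1 to WT4. The KO libraries spanned the whole WT range, with KO3 above it and KO4 below it. Its means were 51.4 ± 15.1 RPKM in KO and 51.5 ± 6.03 RPKM in WT (SD, n = 4 each), and its log2 difference, here and below KO minus WT in log2(RPKM + 1), was -0.05 ± 0.25 (SE, 95% interval -0.61 to 0.51, limma adjusted p = 0.966). Rela (19697), which encodes p65, the subunit with a strong transactivation domain, was at 32.1, 46.4, 60.5 and 41.3 RPKM in KO, against 50.5, 34.1, 38.8 and 32.8 RPKM in WT. KO3 was highest and KO1 lowest, with every WT value between them. The means were 45.1 ± 11.9 RPKM in KO and 39 ± 8.08 RPKM in WT (SD, n = 4 each), with a log2 difference of 0.19 ± 0.24 (SE, 95% interval -0.35 to 0.73, limma adjusted p = 0.834).

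Rel (19696), the gene of c-REL, the subunit best known from lymphoid and myeloid cells, varied more. It was at 2.84, 3.88, 16.5 and 9.09 RPKM in KO, against 17.5, 5.14, 7.53 and 5.96 RPKM in WT. KO1 and KO2 lay below all WT libraries, whereas KO3 and KO4 lay above 3 of them. The log2 difference was -0.26 ± 0.57 (SE, 95% interval -1.54 to 1.02, limma adjusted p = 0.913). In the lane 4 libraries alone, where the KO side is KO1 and KO2, it was -1.07 ± 0.48 (SE, limma adjusted p = 0.463).

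Averaged over the 8 libraries, the non-canonical subunit genes were the least abundant subunits, although Nfkb2 exceeded Rel in KO1, KO2 and WT4 and Relb exceeded it in KO1. Nfkb2 (18034), which encodes the precursor of p52, was at 7.51, 5.47, 4.97 and 2.92 RPKM in KO, against 10.3, 1.68, 5.06 and 7.91 RPKM in WT. All KO values lay within the WT range. The means were 5.22 ± 1.89 RPKM in KO and 6.23 ± 3.70 RPKM in WT (SD, n = 4 each), and the log2 difference was -0.08 ± 0.54 (SE, 95% interval -1.29 to 1.12, limma adjusted p = 0.972). Relb (19698), the gene of the partner of p52, was at 3.55 and 2.51 RPKM in KO1 and KO2 and listed at 0 in KO3 and KO4, against 2.27, 1.17 and 1.75 RPKM in WT1, WT3 and WT4 and a listed 0 in WT2. The KO libraries held both the highest values and 2 of the 3 zeros, and all 3 zeros lay in the libraries with the greatest number of abundant genes at 0. The log2 difference was -0.07 ± 0.66 over all libraries (SE, 95% interval -1.54 to 1.39) and 0.93 ± 0.59 in the lane 4 libraries alone, with limma adjusted p of 0.979 and 0.595.

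**Figure D1:**
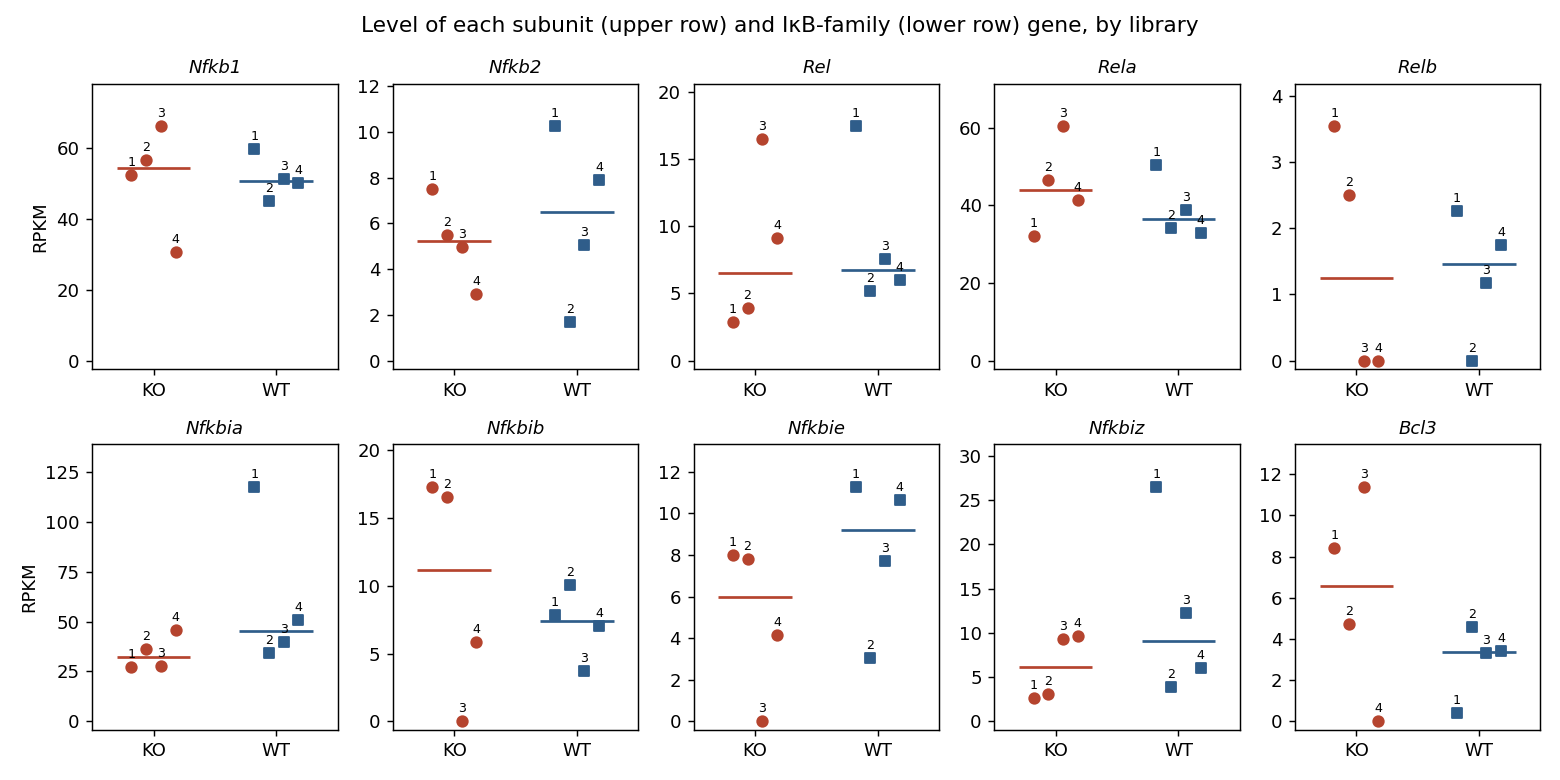
RPKM of the 5 subunit genes (upper row) and the 5 IκB-family genes (lower row) in each library, KO left (circles) and WT right (squares), with the replicate number above each point and a line at the group's median. The ranges of the groups overlap in all 10 panels, and WT1 is the highest library for 5 of the genes.

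Nfkbia (18035), the gene of IκBα and the textbook feedback target of NF-κB, was the most abundant IκB gene in every library. It was at 27.1, 36.4, 27.7 and 45.7 RPKM in KO, against 117.5, 34.3, 40.0 and 50.5 RPKM in WT. KO1 and KO3 lay below all WT libraries, KO2 and KO4 within the WT range, and WT1 stood well above the other 7 libraries. The means were 34.2 ± 8.76 RPKM in KO and 60.6 ± 38.6 RPKM in WT (SD, n = 4 each). The log2 difference was -0.66 ± 0.37 (SE, 95% interval -1.48 to 0.16), the member of smallest p, with limma adjusted p = 0.695 and a 2-sided exact permutation p = 0.143, where 70 assignments of the libraries allow no p below 0.0286. It stayed below 0 in all 17 alternative settings, was -0.29 without WT1 and -0.75 ± 0.45 (SE) in the lane 4 libraries alone. Not all 17 could move it. The filter, the replicate block and leaving out values listed at 0 cannot change the Nfkbia difference. Lane as a covariate repeats the lane 4 value.

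Nfkbie (18037), the gene of IκBε, another cytoplasmic inhibitor that NF-κB induces, was at 7.995, 7.81 and 4.17 RPKM in KO1, KO2 and KO4 and listed at 0 in KO3, against 11.3, 3.02, 7.73 and 10.6 RPKM in WT. Apart from the listed 0, the KO values lay within the WT range. The log2 difference of -0.90 ± 0.75 (SE, 95% interval -2.57 to 0.76, limma adjusted p = 0.757) was -0.18 without KO3 and 0.08 in the lane 4 libraries alone. Nfkbib (18036), the gene of IκBβ, an inhibitor that is classically not a feedback target, was at 17.3 and 16.5 RPKM in KO1 and KO2, listed at 0 in KO3 and at 5.88 RPKM in KO4, against 7.86, 10.04, 3.73 and 7.01 RPKM in WT. KO1 and KO2 lay above all WT libraries and KO3 below them, and over all libraries the log2 difference was -0.19 ± 0.86 (SE, 95% interval -2.10 to 1.73, limma adjusted p = 0.962). It was 0.74 without KO3 and 1.199 ± 0.37 in the lane 4 libraries alone (SE, limma adjusted p = 0.319).

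Nfkbiz (80859), which Toll-like and interleukin-1 receptor signals induce strongly in macrophages, was at 2.63, 3.05, 9.30 and 9.68 RPKM in KO, against 26.5, 3.87, 12.2 and 5.98 RPKM in WT. KO1 and KO2 lay below all WT libraries, and KO3 and KO4 within the WT range. The means were 6.17 ± 3.85 RPKM in KO and 12.2 ± 10.2 RPKM in WT (SD, n = 4 each), with a log2 difference of -0.73 ± 0.63 (SE, 95% interval -2.13 to 0.66, limma adjusted p = 0.762). It was -0.27 without WT1 and -1.46 ± 0.64 in the lane 4 libraries alone (SE, limma adjusted p = 0.453). Bcl3 (12051), whose product binds p50 and p52 homodimers, ran the other way. It was at 8.44, 4.72 and 11.4 RPKM in KO1 to KO3 and listed at 0 in KO4, against 0.426, 4.58, 3.31 and 3.41 RPKM in WT1 to WT4. The KO values above 0 all lay above the WT range, and WT1, highest for Nfkbia and Nfkbiz, was lowest in WT for Bcl3. The log2 difference was 0.54 ± 0.82 (SE, 95% interval -1.30 to 2.37, limma adjusted p = 0.863). Without KO4 it was 1.32, and without KO3 or WT1 it was 0.11 and 0.10.

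All 10 members passed the filter on low values (at least 1 RPKM in at least 4 libraries), and none passed the test between genotypes. None of the 10 had an adjusted p under 0.05 in limma, where 0.0% of the 11276 genes tested did. None had an unadjusted p under 0.05, where 7.51% of all genes did. Traf6, the deleted gene, passed the filter only through the WT libraries and was not called either (log2 difference -2.75 ± 0.53, SE, limma adjusted p = 0.341). A gene that is not called here may therefore still differ. The groups overlapped in all 10, whereas 5.92% of all genes tested were without overlap. Of the 10 members, 8 had a log2 difference below 0, against 61.0% of all genes. The median log2 difference was -0.14 over the 10 members and -0.14 over all genes tested. It was -0.07 for the 5 subunit genes and -0.66 for the 5 IκB genes, of which only Bcl3 lay above 0; in the lane 4 libraries alone Nfkbib and Nfkbie did as well. The IκB median was 0.081 in the lane 4 libraries alone, -0.18 without KO3 and -0.27 without WT1, and the subunit median was 0.084, -0.083 and 0.14 in the same settings and 0.18 without KO4. The within-group SD of log2(RPKM + 1) had a median of 0.92 over the members and 0.59 over all genes, and it exceeded 0.59 in 8 members, all but Nfkb1 (0.35) and Rela (0.33). For Relb, Nfkbib, Nfkbie and Bcl3 this SD includes values listed at 0. The comparison was not matched for level, so it cannot be read as particular to the members.

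Within lane 4, where 2 KO libraries meet 4 WT libraries, 5 of the 10 members were without overlap, as were 24.2% of all genes tested. Nfkbib, Relb and Bcl3 lay higher in KO1 and KO2 (10.7% of all genes did), and Rel and Nfkbiz lay lower (13.5% of all genes did). None of them passed an adjusted p of 0.05 there, and 0.0177% of all genes did. Lane 5 holds KO libraries only, so within it there is no difference to give, and among KO libraries lane cannot be told apart from whatever else sets KO3 and KO4 apart.

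**Figure D2:**
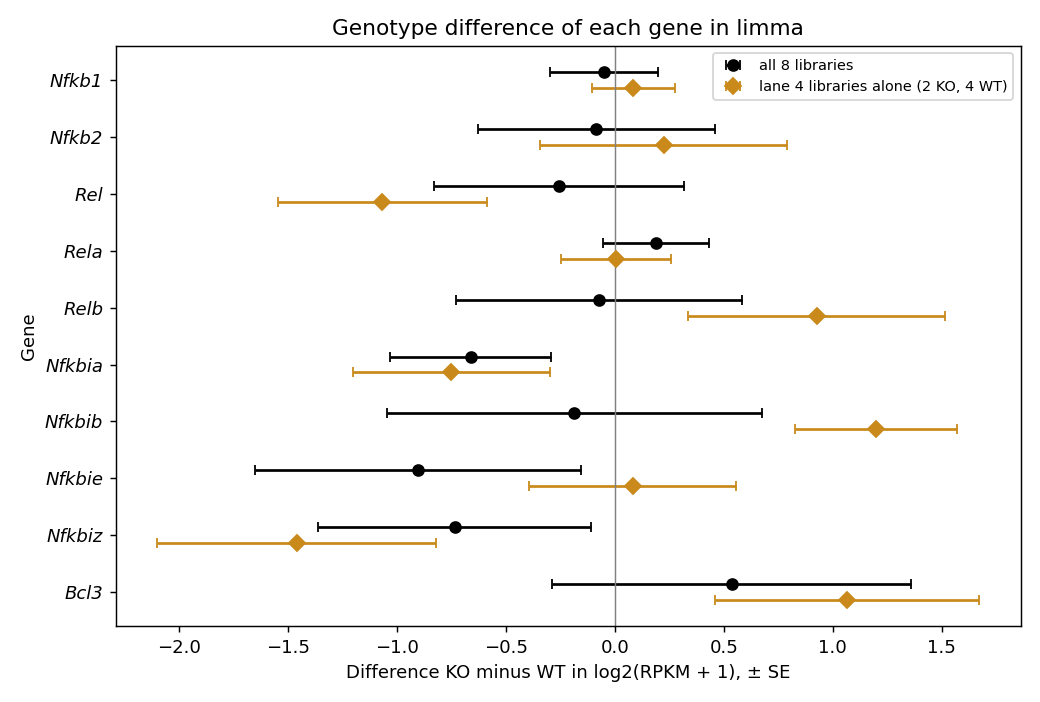
Difference KO minus WT in log2(RPKM + 1) of each gene, with SE from limma, over all 8 libraries (circles) and over the lane 4 libraries alone (diamonds). Nfkbia keeps nearly the same value (-0.66 and -0.75), whereas Nfkb1, Nfkb2, Relb, Nfkbib and Nfkbie change sign with the lane 5 libraries left out.

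The libraries that stood high or low differed from member to member. WT1 was the highest library for Nfkb2, Rel, Nfkbia, Nfkbie and Nfkbiz. The share of all genes tested that were highest in WT1 was not counted, so this cannot be read as particular to the members. Of these 5, 4 had the κB consensus in a promoter entry, while Nfkbiz had no entry. Among all members with an entry, 5 of 7 had the consensus. Bcl3, the fifth member with the consensus, was at its WT low in WT1 (0.426 RPKM, against 3.31 to 4.58 RPKM in WT2 to WT4). WT1 also had the highest level of immediate-early genes, which are induced within minutes of a stimulus. That level, the mean log2(RPKM + 1) of 24 tested members minus that of all genes, was 0.50, 0.81, 2.08 and 1.64 in KO1 to KO4, against 2.49, 1.89, 2.07 and 1.44 in WT1 to WT4. KO1 and KO2, lowest on that level, were also the lowest libraries for Rel and Nfkbiz and the highest for Nfkbib and Relb. The other members did not have both libraries at an extreme. For Nfkbia, KO2 (36.4 RPKM) lay above KO3 (27.7 RPKM) and WT2 (34.3 RPKM). The share of all genes with KO1 and KO2 at an extreme was not counted either. The part of the immediate-early response in the values of the members was not tested.

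**Figure D3:**
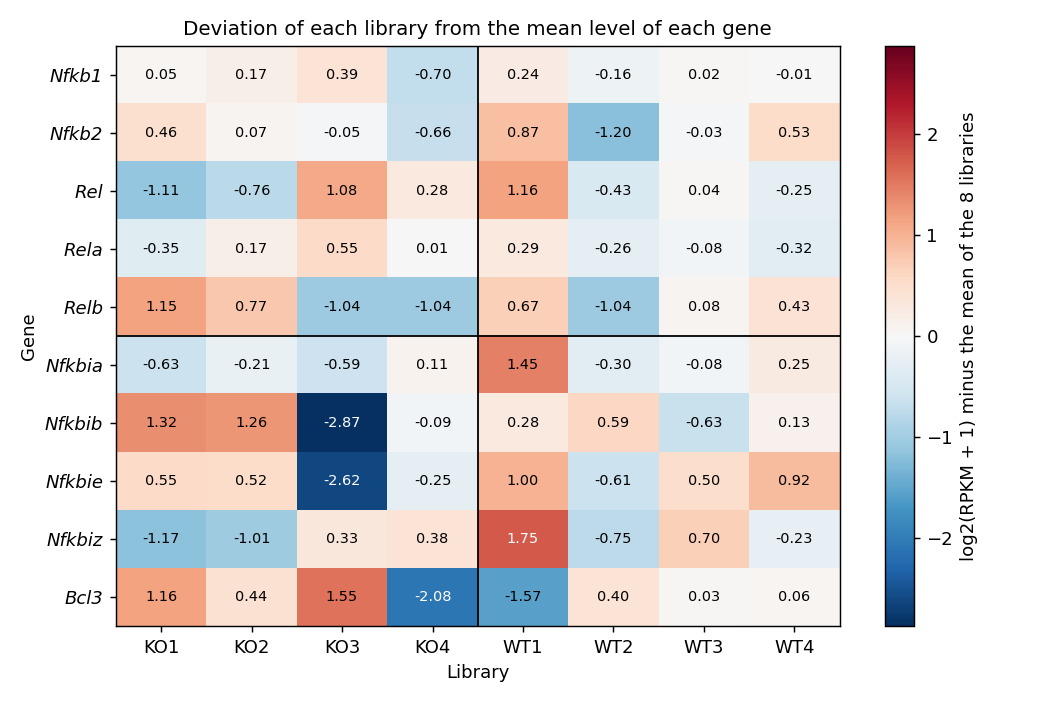
log2(RPKM + 1) of each gene in each library minus the gene's mean over the 8 libraries, KO left and WT right of the vertical line, subunit genes above and IκB genes below the horizontal line. WT1 lies 1.45 above the mean for Nfkbia and 1.75 above it for Nfkbiz, KO1 and KO2 lie below the mean for Rel and Nfkbiz, and the deepest cells (Nfkbib and Nfkbie in KO3, Bcl3 in KO4) are values listed at 0.

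Nfkb1, Rela and Nfkbia formed an upper tier of levels. Averaged over the 8 libraries, they were at 51.5, 42.1 and 47.4 RPKM, and their ranges overlapped each other. Their lowest value, 27.1 RPKM for Nfkbia in KO1, lay narrowly above the highest value of any other member, 26.5 RPKM for Nfkbiz in WT1. The other 7 genes averaged between 1.41 RPKM (Relb) and 9.16 RPKM (Nfkbiz), and each overlapped its neighbour in that order. Nfkb1 exceeded Rela in 3 of 4 KO libraries and in 4 of 4 WT libraries.

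Nfkb1 and Rela made up most of the subunit messages in every library. Together they gave 85.8, 89.7, 85.5 and 85.7% of the summed subunit RPKM in KO1 to KO4, against 78.6, 92.1, 86.7 and 84.1% in WT1 to WT4. The non-canonical genes Nfkb2 and Relb gave 11.3, 6.94, 3.36 and 3.48% in KO, against 8.94, 1.96, 6.00 and 9.81% in WT. KO1 had the highest share and WT2 the lowest, and the 3 libraries that list Relb at 0 (KO3, KO4 and WT2) had the 3 lowest shares. Rel gave 2.89 and 3.37% in KO1 and KO2 and 11.1 and 10.8% in KO3 and KO4, against 5.98 to 12.5% in WT.

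The IκB messages were less even. Nfkbia gave 42.7, 53.1, 57.3 and 69.9% of the summed IκB RPKM in KO, against 71.8, 61.4, 59.7 and 65.1% in WT. The shares of KO1, KO2 and KO3 lay below the WT range. The genes that NF-κB or its upstream signals induce (Nfkbia, Nfkbie, Nfkbiz and Bcl3) together gave 72.7, 75.9, 100.0 and 91.0% in KO, against 95.2, 82.0, 94.4 and 91.0% in WT, and Nfkbib gave the rest. The 100.0% in KO3 follows from Nfkbib listed at 0 there. Summed IκB RPKM per summed subunit RPKM was 0.65, 0.60, 0.33 and 0.78 in KO, against 1.17, 0.65, 0.65 and 0.79 in WT. WT1 was the only library in which IκB messages exceeded subunit messages, and KO3 had the lowest ratio. These shares and ratios combine the members, so they are given with no test.

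**Figure D4:**
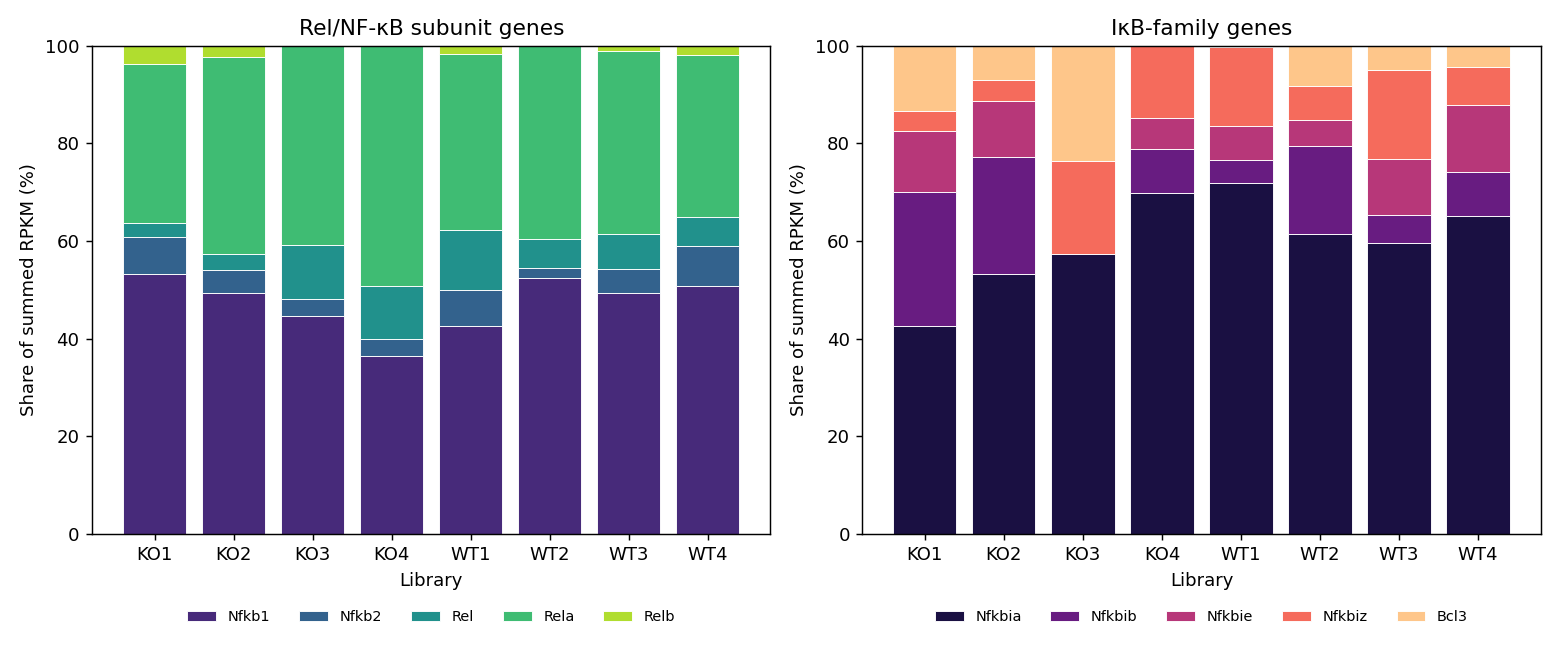
Share of each gene in the summed RPKM of the 5 subunit genes (left) and of the 5 IκB-family genes (right) in each library, KO libraries left of WT libraries. Nfkb1 and Rela fill between 78.6 and 92.1% of every subunit bar, and the Nfkbib segment is widest in KO1 (27.3%) and KO2 (24.1%) and absent in KO3, where the gene is listed at 0.

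Among the genes whose profile over the 8 libraries was most like that of Nfkbia were Abcb1b, Lemd3, Prnp and Calcrl. Their log2(RPKM + 1) values, each minus the gene's own mean, differed from those of Nfkbia by a root mean square of 0.24 to 0.29. The median over all genes tested was 0.83. The nearest member was Nfkbiz, at 0.61. For Rela the nearest genes were Tsn, Pcnx, Creb1, Esd and Dpf2, at 0.083 to 0.13 against a median of 0.64, and the nearest member was Nfkb1, at 0.32. Flat profiles resemble each other by this measure.

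Around these genes, the machinery that frees NF-κB showed no called change, in a test that did not call the deleted Traf6 either. Of 28 tested genes of the IκB kinase, NIK and IκB degradation steps, 0 rose and 0 fell at an adjusted p of 0.05 in limma, 1 was lower at an unadjusted p under 0.05 (as were 4.74% of all genes tested), and the median log2 difference was -0.31, against -0.14 over all genes. The genes of smallest p were Skp1 and Cul1, which encode parts of the ubiquitin ligase that attaches ubiquitin to phosphorylated IκB. Skp1 was at 170, 158, 201 and 192 RPKM in KO, against 300, 230, 248 and 209 RPKM in WT, with all KO values below all WT values (log2 difference -0.44 ± 0.16, SE, limma adjusted p = 0.634). Cul1 was at 27.7 ± 4.90 RPKM in KO and 37.5 ± 6.76 RPKM in WT (SD, n = 4 each). Ube2v1, a partner of the enzyme that builds TRAF6-linked ubiquitin chains, was next to Skp1 the most abundant, at 101 ± 4.12 RPKM in KO and 95.1 ± 13.7 RPKM in WT.

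Of 18 tested nuclear and IκB-like regulators, 0 rose and 0 fell at an adjusted p of 0.05, and 1 was lower at an unadjusted p under 0.05, as were 4.74% of all genes tested. The median log2 difference was -0.10, against -0.14 over all genes. The genes of smallest p were Nkapd1, at 4.48, 5.60, 0 (listed at 0) and 0.0118 RPKM in KO and 5.83 to 8.16 RPKM in WT, and Akirin2, a nuclear cofactor of NF-κB, at 24.9 ± 6.27 RPKM in KO and 36.9 ± 8.72 RPKM in WT (SD, n = 4 each). The deacetylase genes Hdac3 and Hdac1 were the most abundant, at 103 ± 20.2 and 66.9 ± 20.7 RPKM in KO and at 97.7 ± 36.8 and 80.3 ± 14.5 RPKM in WT.

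Of 25 tested NF-κB target genes outside the family, 0 rose and 0 fell at an adjusted p of 0.05, and 6 lay lower with an unadjusted p under 0.05 (as did 4.74% of all genes tested). Their median log2 difference was -0.54, against -0.14 over all genes, and is not given with libraries left out. The level of this list, the mean log2(RPKM + 1) of its tested genes minus that of all genes, overlapped between the groups. It was -0.20, -0.15, 0.49 and -0.60 in KO1 to KO4, against 0.65, -0.04, 0.25 and 0.18 in WT1 to WT4. The genes of smallest p were Tnfaip3, whose product A20 restrains signalling through TRAF6 to the IκB kinase, and Sdc4. Tnfaip3 was at 2.94, 4.17, 8.94 and 4.55 RPKM in KO, against 40.0, 21.2, 12.2 and 14.1 RPKM in WT (limma adjusted p = 0.441). Like Nfkbia it was highest in WT1, but unlike Nfkbia its groups did not overlap. Sdc4, a cell surface proteoglycan gene, was listed at 0 in all KO libraries and at 1.16 to 2.45 RPKM in WT. It passed the filter on low values only through the WT libraries, so its difference could point only this way. Junb and Zfp36, the most abundant of the list, also belong to the immediate-early genes. Junb, an AP-1 subunit gene, was at 125 to 157 RPKM in KO and 196 to 367 in WT, and Zfp36, whose product speeds mRNA decay, at 190 to 411 RPKM in KO and 247 to 516 in WT. Of the 24 tested immediate-early genes, 0 rose and 0 fell at an adjusted p of 0.05, 11 were lower at an unadjusted p under 0.05 (as were 4.74% of all genes tested), and the median log2 difference was -0.77, against -0.14 over all genes. This list and the other lists were chosen with earlier results of these data known, so their counts and medians are not independent of those results. Among the immediate-early genes, Fosb and Atf3 had the smallest p. Fosb was at 37.3 to 64.9 RPKM in KO and 84.7 to 166.7 in WT. Atf3 was at 0 (listed at 0) to 0.504 RPKM in KO and 2.36 to 11.3 in WT. Like Sdc4, Atf3 passed the filter only through the WT libraries. Fos and Ier2 were the most abundant, with Fos at 178 to 490 RPKM in KO and 401 to 457 in WT, and Ier2 at 237 to 398 RPKM in KO and 366 to 492 in WT.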

How the data were processed

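Poly(A) RNA from 8 LSK libraries, 4 KO and 4 WT, was sequenced. Groups follow the titles and genotypes in the labels. The deposited values were taken to be RPKM made by the authors, with a single value for each Entrez gene in a library. The tables name no unit, and RPKM was inferred from the range and sums of the values. The submitters' processing notes list TopHat, edgeR and build mm9 without versions or roles. As for the counting tool, it is not given in the sources used here. Of 24112 gene IDs, 24029 (99.7%) matched a symbol in a GRCm38.p6 table, used for names only.

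Depth was estimated from values up to 0.2 RPKM in genes with a lone protein-coding transcript, of which 49.1% to 67.7% per library were whole reads within 0.03 reads. Whole reads were therefore not recovered, no count test was run and no counting interval is given.

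A gene was tested if 4 or more libraries reached 1 RPKM (11276 genes). Its log2(RPKM + 1) was fitted on genotype over the 8 libraries with limma 3.58.1 in R 4.3.3, with a trended, robust eBayes step and Benjamini-Hochberg adjustment over all genes tested. This scale understates the change of low genes. The fit was tested on simulated data, drawn as independent normal values without a lane effect or values listed at 0. Exact permutation tests were 2-sided. The members and lists were chosen with earlier results of these data known. Named genes are the members, Traf6, the pair of smallest p and the pair of highest level per list, and the 5 profiles nearest to Nfkbia and Rela, of which 1 is not reported here; marker genes are named for the check of the sort. Values listed at 0 were kept. Identical values in 2 libraries of a group were most frequent between KO3 and KO4, at 6.86% of tested genes. Genes listed at 0 in both libraries count as identical here. Alternatives changed the filter, pseudocount, lane, replicate block, normalization, weights and libraries; leaving out values listed at 0 was added after the data were seen.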

Additional observations from a re-analysis of the deposited data

Results flagged for a closer look

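Of 40 groups of 4 libraries examined, 1 held a library far from the other 3, where chance alone flags about 1 in 20. It was the level of the nuclear and IκB-like regulators (mean log2 of the list minus that of all genes tested), which was 1.30 in KO3 and 0.47 to 0.58 in the other KO libraries, against 0.61 to 1.03 in WT. No member of the NF-κB or IκB genes stood out in this way, although WT1 was far above the other WT libraries for Nfkbia (117.5 against 34.3 to 50.5 RPKM).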

How the results depend on the processing

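No member passed the threshold in any of its 17 alternatives, and Nfkbia, Nfkbiz and Bcl3 kept their direction in all 17. The count of genes past the threshold, 0, became 2 in lane 4 alone, 3 without WT2, KO3 and KO4 and 164 with library weights (which rest on KO2, weight 6.50), lay between 0 and 2 when 1 library was left out, and was 0 with the replicate block. Same-numbered libraries did not deviate together (correlations -0.05, -0.08, -0.04 and -0.06), and the labels state no pairing. These correlations cannot show that the libraries are unpaired, since KO3 and KO4 also differ in lane and in values listed at 0. Of 170 member values 34 reversed. The filter and the replicate block could reverse none. Leaving out values listed at 0 could change only members with such a value. Lane as a covariate repeats the differences of lane 4 alone, so its reversals are counted again. With lane as a covariate and in lane 4 alone alike, Nfkb1 was 0.084, Nfkb2 0.22, Relb 0.93, Nfkbib 1.199 and Nfkbie 0.081. With quantile normalization, which moved the median of all genes to 0.00, Nfkb2 was 0.12, Relb 0.50 and Nfkbib 0.33. With library weights Nfkb1 was 0.064, Relb 0.50 and Nfkbib 1.22. Without WT2, KO3 and KO4, Nfkb1 was 0.023, Rela -0.052, Relb 0.57 and Nfkbib 1.37. With values listed at 0 left out, Relb was 0.57 and Nfkbib 0.74. Leaving out each library gave -0.19 to 0.18 for Nfkb1, -0.50 to 0.19 for Nfkb2, -0.66 to 0.086 for Rel, -0.47 to 0.26 for Relb and -0.66 to 0.74 for Nfkbib. The cause was not tested. Counts of reads are not known, so precision at low levels is not known either.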
